A study of Mus musculus with 8 samples.

Results

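The 10 genes described here are known direct targets of the glucocorticoid receptor: Fkbp5, Tsc22d3, Zbtb16, Sgk1, Dusp1, Ddit4, Errfi1, Fam107a, Mertk and Rasd1. They were taken as a list of gene symbols, by a rule that names no measured value but was drawn up with earlier results of these data known, out of 18193 genes with a named probe set on the array. All 10 were found, with 20 of the 45101 probe sets between them, and each gene was read from its brightest probe set on average. Levels are log2 intensities, and a difference of 1 is a doubling.

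The cells were 3T3-L1 adipocytes, fat cells grown in culture from a mouse fibroblast line, which serve as a model of insulin-responsive glucose transport. They had been made insulin resistant in 3 ways: with dexamethasone, a synthetic glucocorticoid (Dex, 3 arrays), with the inflammatory cytokine tumour necrosis factor (TNF, 3 arrays) or with chronic insulin (CI, 2 arrays). In every group the antioxidant MnTBAP, a manganese porphyrin, was present for the final 6 h. Cells without the antioxidant and untreated cells were not analysed here, so the effect of the antioxidant is not measured and each value sets one model against another. The doses and lengths of the 3 model treatments are not given in the sources used here. Whether replicate arrays stem from separate cultures is not stated in the labels, so a p-value here reflects only the spread among these arrays, which may be technical.

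The glucocorticoid receptor waits in the cytoplasm in a complex with heat shock protein chaperones. Once it binds a steroid such as dexamethasone it moves to the nucleus and binds DNA as a dimer, classically at a glucocorticoid response element made of a pair of inverted half-sites set apart by a short spacer. Its directly induced genes include inhibitors of inflammatory and growth factor signalling and proteins that feed back on the receptor itself. In fat cells glucocorticoids promote differentiation but, when given for long, impair the uptake of glucose in response to insulin.

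The letters of that element were searched for on both strands of the RefSeq promoter windows of build GRCm38.p6, which run from 250 bases before to 50 bases after an annotated start. The half-site was AGAACA, which reads TGTTCT on the other strand, and the pair was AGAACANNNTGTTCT, so every exact pair also holds 2 half-sites. RefSeq windows were found for 8 of the 10 genes, 18 windows in all; Zbtb16 and Rasd1 were not among them. A half-site lay in 6 of the 18 windows (33.3%), against 19% of all 32851 windows, but 5 of the 6 belonged to Sgk1 and Fam107a. By gene, 3 of the 8 (37.5%) had a half-site in at least 1 window, against 21.3% of all genes and 3 of 22 other glucocorticoid-induced genes (13.6%). The exact pair lay in 1 of the 18 and in 3 of all 32851. The windows of Sgk1 with the exact pair, of Fam107a, which had the largest difference between models, and of Fkbp5, which had a large difference and no half-site in its single window, are shown 5′ to 3′ on the gene's own strand with half-sites in capitals.
Sgk1, start 5 (chr10:21993640-21993939, plus strand): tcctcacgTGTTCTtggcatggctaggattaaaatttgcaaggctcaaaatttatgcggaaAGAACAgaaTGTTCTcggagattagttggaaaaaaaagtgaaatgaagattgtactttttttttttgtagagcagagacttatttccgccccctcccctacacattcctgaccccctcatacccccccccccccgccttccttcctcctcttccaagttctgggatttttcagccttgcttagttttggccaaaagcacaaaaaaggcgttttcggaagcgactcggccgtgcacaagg
Fam107a, start 1 (chr14:8309728-8310027, minus strand): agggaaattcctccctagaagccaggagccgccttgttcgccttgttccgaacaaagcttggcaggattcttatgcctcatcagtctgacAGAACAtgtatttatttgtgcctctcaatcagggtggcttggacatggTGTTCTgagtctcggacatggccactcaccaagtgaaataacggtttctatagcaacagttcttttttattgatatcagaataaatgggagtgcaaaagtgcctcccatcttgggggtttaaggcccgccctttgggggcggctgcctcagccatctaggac
Fkbp5, start 1 (chr17:28486100-28486399, minus strand): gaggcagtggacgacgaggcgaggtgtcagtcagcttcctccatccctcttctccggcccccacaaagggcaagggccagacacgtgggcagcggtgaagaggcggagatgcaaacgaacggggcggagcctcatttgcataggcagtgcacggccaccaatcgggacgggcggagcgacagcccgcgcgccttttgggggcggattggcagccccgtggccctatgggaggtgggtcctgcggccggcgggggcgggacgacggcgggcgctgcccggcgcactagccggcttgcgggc

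In the Sgk1 window the exact pair spanned positions -189 to -175 counted from the annotated start, and another half-site lay at -242 to -237. Sgk1 has 6 annotated starts, of which 3 had at least 1 half-site, and the array values do not tell them apart. In the Fam107a window 2 half-sites lay at -160 to -155 and at -112 to -107, and the second belonged to a pair at -121 to -107 that matched 10 of the 12 fixed letters. The second annotated start of Fam107a lies 2 bases away and shares these sites. A pair with at most 2 letters off was found in 4 of the 18 windows (22.2%) and in 1.84% of all windows. The 4 were starts 3 and 5 of Sgk1 and starts 1 and 2 of Fam107a, whose shared site was counted in both windows. The share by gene was not counted for this pair. Tsc22d3 had a half-site at -185 to -180 of start 3, and the windows of Fkbp5, Dusp1, Ddit4, Errfi1 and Mertk had none. A match describes the letters only, and its absence says nothing of binding further from the start.

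**Figure D1:**
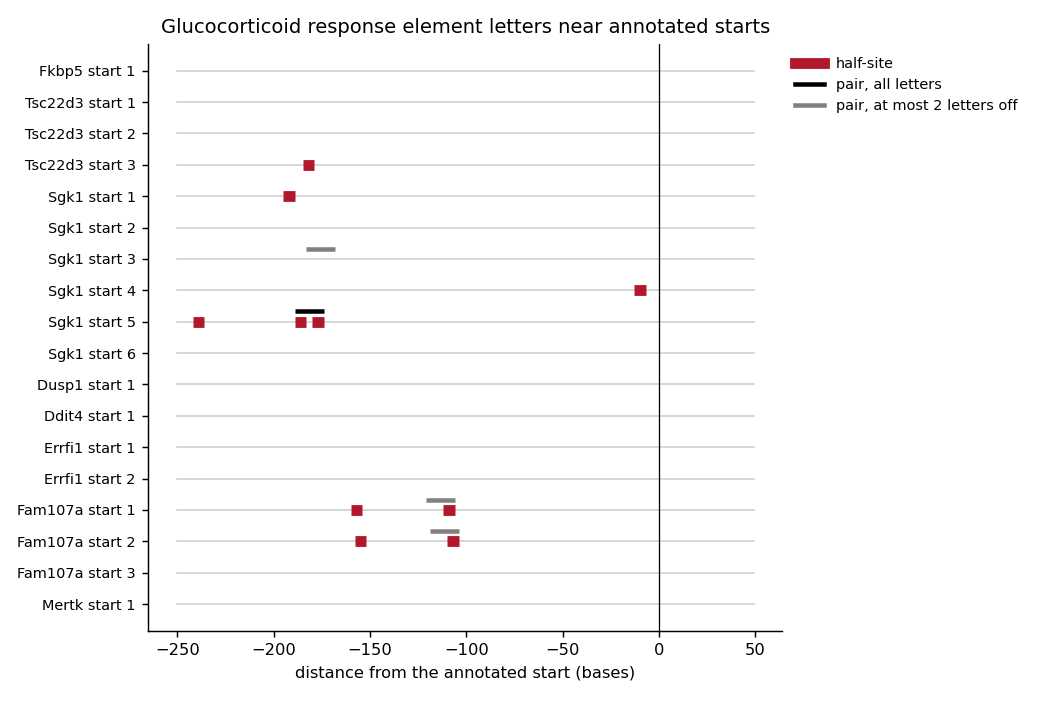
Positions of the half-site and of the pair in each RefSeq promoter window of the 8 genes, with distance from the annotated start in bases on the x axis. Each grey line is 1 of the 18 windows; the exact pair appears once, at start 5 of Sgk1, and a pair with 2 letters off at start 3 of Sgk1 and at starts 1 and 2 of Fam107a.

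The first question was whether the receptor's targets stood higher in the Dex model than in the other models. Dex cells had higher levels of 8 of the 10 genes against CI cells, where 3.33% of all 18193 genes were called higher. They also had higher levels of 8 against TNF cells, where 3.16% of all genes were called higher. Both times the 8 were Fkbp5, Tsc22d3, Zbtb16, Sgk1, Dusp1, Errfi1, Fam107a and Mertk, but the comparisons share the Dex arrays and so are not independent of each other. Rasd1 was lower in both comparisons (5.67% of all genes were called lower in Dex against CI and 4.14% in Dex against TNF), and Ddit4 was called in neither. The median difference over the 10 genes was 1.30 for Dex minus CI and 1.94 for Dex minus TNF, against 0.02 and -0.01 over all genes. Calls used limma with an adjusted p under 0.05 over all genes and an absolute log2 difference over 0.5, and all adjusted p-values below come from that fit. In these bulk samples fewer cells of a type and less RNA per cell cannot be told apart.

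Fkbp5 encodes a co-chaperone that lowers the receptor's affinity for hormone and so closes a feedback loop. It read 13.13, 13.14 and 12.99 in the Dex arrays, against 10.49, 10.44 and 10.38 in TNF and 10.10 and 10.15 in CI. The 3 Dex arrays stood far above the other 5, and arrays of one model lay close together. The difference was 2.96 ± 0.08 (SE) for Dex minus CI, a 7.79-fold higher level (adjusted p = 1.33e-09), and 2.65 ± 0.07 for Dex minus TNF, a 6.26-fold higher level (adjusted p = 7.57e-10). It ranked 11 among the rises over all genes in the first comparison and 12 in the second.

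Tsc22d3 encodes the glucocorticoid-induced leucine zipper protein, which binds and restrains inflammatory transcription factors. Its levels were 11.93, 12.23 and 11.88 in Dex, 9.49, 9.93 and 9.81 in TNF and 9.71 and 10.05 in CI. The Dex arrays lay above all others, while the TNF and CI arrays overlapped. Tsc22d3 was 4.38-fold higher in Dex than in CI (log2 difference 2.13 ± 0.15, adjusted p = 1.84e-06) and 4.83-fold higher than in TNF (2.27 ± 0.13, adjusted p = 4.73e-07).

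Zbtb16 encodes a zinc finger transcription factor, also called PLZF. It measured 10.51, 10.39 and 10.29 in Dex, against 8.61, 8.40 and 8.88 in TNF and 8.94 and 9.20 in CI. The 3 models did not overlap, with Dex highest and TNF lowest. The difference was 1.33 ± 0.13 for Dex minus CI (2.51-fold, adjusted p = 2.97e-05) and 1.76 ± 0.12 for Dex minus TNF (3.40-fold, adjusted p = 1.61e-06).

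**Figure D2:**
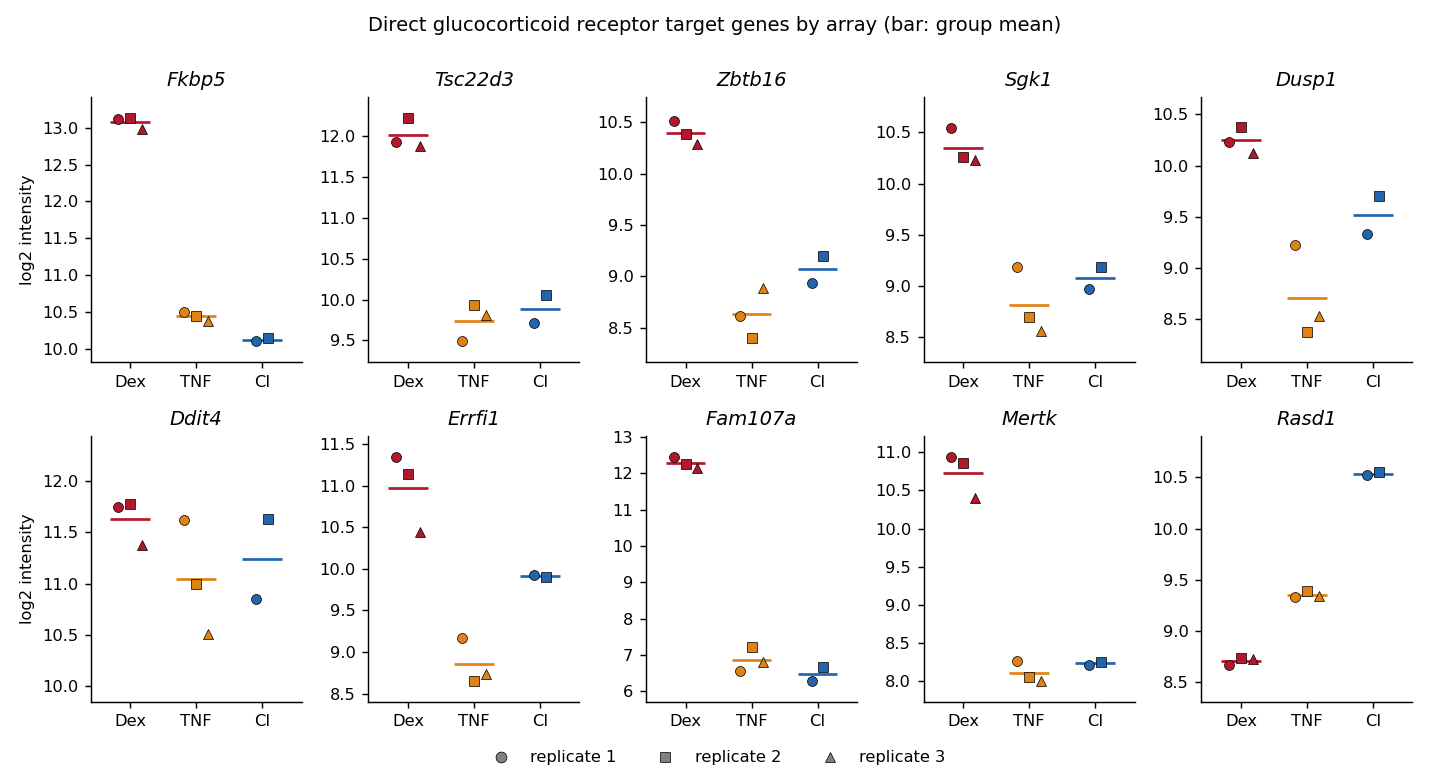
Log2 intensity of each of the 10 genes on every array, with Dex, TNF and CI from left to right, symbols for the replicate number and a bar at the group mean; the y axis differs between panels. The Dex arrays lie above all others for 8 genes, overlap with them for Ddit4 and lie below them for Rasd1. The share of all genes whose arrays separate in this way was not counted.

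Among the signalling proteins, Sgk1 encodes a serine/threonine kinase that acts downstream of PI3-kinase and regulates ion channels. Sgk1 levels were 10.54, 10.26 and 10.23 in Dex, 9.18, 8.70 and 8.56 in TNF and 8.97 and 9.19 in CI. All Dex arrays exceeded all others, and TNF and CI overlapped. This is the gene with the exact pair in one of its windows, and its difference was 1.26 ± 0.16 for Dex minus CI (2.40-fold, adjusted p = 0.000195) and 1.53 ± 0.15 for Dex minus TNF (2.89-fold, adjusted p = 2.1e-05).

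Errfi1 encodes an inhibitor of the epidermal growth factor receptor. It measured 11.34, 11.14 and 10.44 in Dex, 9.17, 8.66 and 8.74 in TNF and 9.92 and 9.90 in CI. The groups did not overlap, CI lay between the other two, and Dex replicate 3 was well below the others of its group. Errfi1 was 2.09-fold higher in Dex than in CI (1.06 ± 0.22, adjusted p = 0.00515) and 4.34-fold higher than in TNF (2.12 ± 0.20, adjusted p = 1.92e-05).

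Dusp1 encodes a phosphatase that switches off the MAP kinases p38 and JNK. Its levels were 10.23, 10.37 and 10.13 in Dex, 9.22, 8.38 and 8.53 in TNF and 9.33 and 9.71 in CI. The groups did not overlap, though the first TNF array came close to the lower CI array. The level in Dex was 2.89-fold that in TNF (1.53 ± 0.18, adjusted p = 0.000123) and 1.66-fold that in CI (0.73 ± 0.21, adjusted p = 0.0262). The call against CI was lost without any 1 of 3 arrays, with 0.54 (adjusted p = 0.212) without CI replicate 1, 0.73 (0.0604) without Dex replicate 1 and 0.66 (0.0895) without Dex replicate 2.

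Ddit4 encodes an inhibitor of the growth-promoting kinase complex mTORC1, and it is also induced by cell stress. It read 11.75, 11.78 and 11.38 in Dex, 11.62, 10.998 and 10.51 in TNF and 10.85 and 11.63 in CI. The arrays of all 3 models overlapped, and the TNF and CI arrays spread widely, with SDs of 0.56 and 0.55. The difference was 0.39 for Dex minus CI (95% interval -0.23 to 1.02, adjusted p = 0.381) and 0.59 for Dex minus TNF (0.03 to 1.15, adjusted p = 0.134). Both differences depended on single arrays: that for Dex minus CI was 0.0067 without CI replicate 1 and 0.78 without CI replicate 2, called in neither case. That for Dex minus TNF was 0.32 without TNF replicate 3, not called, and 0.88 without TNF replicate 1 (adjusted p = 0.011), which was called.

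Fam107a encodes an actin-binding protein known from brain as a stress-induced gene. It measured 12.45, 12.27 and 12.16 in Dex, against 6.57, 7.22 and 6.80 in TNF and 6.29 and 6.66 in CI. The TNF and CI levels were low for this array, with means at the 31.8th and 26th percentiles over genes, and how much of such low values is background was not analysed here, which leaves the size of the fold uncertain. The difference of 5.81 ± 0.17 for Dex minus CI was the highest over all 18193 genes (56.2-fold, adjusted p = 3.24e-09), and that of 5.43 ± 0.15 for Dex minus TNF ranked 2 (43.1-fold, adjusted p = 1.18e-09). The size and rank also depend on the probe set, which was chosen by its mean over all arrays, Dex included. Probe set 1434203_at was brighter in TNF (6.97) and CI (6.69) and differed by 4.92 for Dex minus CI, and 1435918_at differed by 4.51.

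Mertk encodes a receptor tyrosine kinase through which macrophages and other cells take up dying cells. Its levels were 10.94, 10.86 and 10.40 in Dex, 8.26, 8.04 and 8.0004 in TNF and 8.20 and 8.25 in CI. The Dex arrays stood clear of the other 5, which overlapped. The difference was 2.51 ± 0.14 for Dex minus CI (5.69-fold, adjusted p = 4.2e-07) and 2.63 ± 0.13 for Dex minus TNF (6.20-fold, adjusted p = 9.52e-08). Because Mertk is also a macrophage gene, a list of macrophage and leukocyte markers was read beside it. Of 14 measured markers, 1 was called between Dex and CI (Cd14, higher in Dex by 0.98), and 2 between Dex and TNF (Lyz2 and Cd74, lower in Dex). Over all genes 3.33% were called higher in the first comparison and 4.14% lower in the second. The summed linear intensity of the 14 markers was 3316.1 to 3358.3 in Dex, 5347.4 to 5517.6 in TNF and 3360.3 to 3396.2 in CI. The 14 markers varied widely in level. In every model 5 of them (Ptprc, Itgam, Cd163, Mrc1 and Aif1) averaged below 6.467, the 25th percentile of gene means, with the pan-leukocyte marker Ptprc at 4.63 in Dex, 4.66 in TNF and 4.60 in CI. Another 5 (Lyz2, Cd14, Csf1r, Cd3e and Fcgr1) averaged above the median gene, 7.918, in every model, with Lyz2 at 10.09 in Dex, 11.04 in TNF and 10.49 in CI and Csf1r at 8.68 in Dex, 8.90 in TNF and 8.502 in CI. Their part in the Mertk difference was not tested.

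Rasd1 encodes a small Ras-like GTPase first described as induced by dexamethasone, and here it ran against the others. It measured 8.67, 8.74 and 8.73 in Dex, 9.33, 9.39 and 9.34 in TNF and 10.52 and 10.55 in CI. The groups were tight and did not overlap, with Dex lowest and CI highest. Rasd1 was 3.54-fold lower in Dex than in CI (-1.83 ± 0.07, adjusted p = 2.6e-08) and 1.56-fold lower in Dex than in TNF (-0.65 ± 0.06, adjusted p = 2.13e-05). With no untreated cells, a lower level in Dex cannot be told apart from a higher level in the other 2 models.

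**Figure D3:**
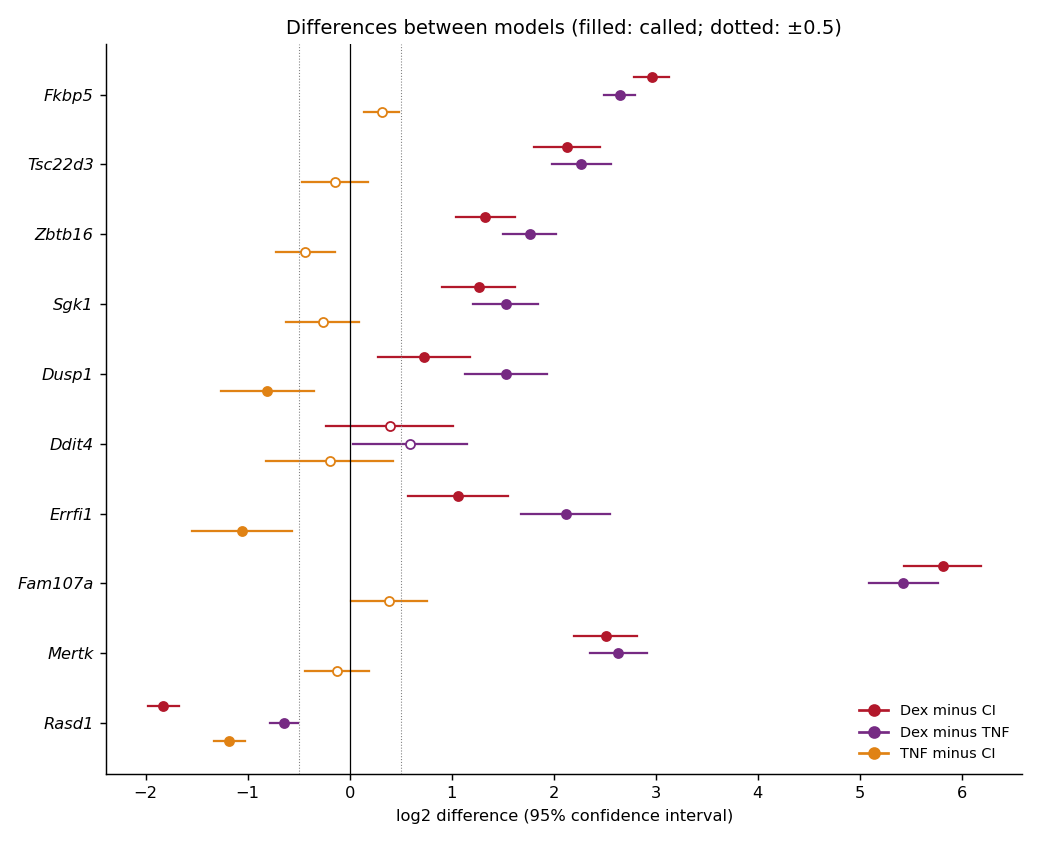
Log2 difference of each gene with its 95% confidence interval for Dex minus CI, Dex minus TNF and TNF minus CI (top to bottom within a gene); filled points passed both limits of the call and dotted lines mark a difference of 0.5 either way. For 8 genes both Dex differences are filled and positive, Rasd1 is filled and negative in all 3 comparisons, and Ddit4 is open in all 3.

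TNF and CI, whose labels name no glucocorticoid, were compared with each other in the same fit. With limma, 3 of the 10 genes were called lower in TNF and 0 higher, where 5.23% and 3% of all genes were. At an unadjusted p under 0.05, 2 were higher (Fkbp5 and Fam107a) and 4 lower. The share of all genes at that limit was not counted. The median difference over the 10 genes was -0.23, against 0.03 over all genes. Over all genes the called share that was higher was 36.4%, and it shifted with scaling to 46.7% after quantile normalisation and 27.3% with arrays centred on the median, while the 3 lower genes were still called lower under both scalings. They were Rasd1, 2.27-fold lower (-1.18 ± 0.07, adjusted p = 1.27e-06), Errfi1, 2.08-fold lower (adjusted p = 0.00584), and Dusp1, 1.75-fold lower (-0.81 ± 0.21, adjusted p = 0.0161). Leaving out CI replicate 2 gave Dusp1 a difference of -0.62 (adjusted p = 0.162), and leaving out TNF replicate 3 gave -0.72 (adjusted p = 0.0592), neither of them called. For Errfi1 and Dusp1 the Dex difference against TNF was therefore larger than that against CI, as it must be for any gene lower in TNF than in CI.

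Fkbp5 and Zbtb16 passed the p limit but not the size limit between TNF and CI. Fkbp5 was 0.32 higher in TNF (adjusted p = 0.0131), and Zbtb16 was 0.44 lower (adjusted p = 0.0355). Fam107a differed by 0.38 (95% interval 0.01 to 0.76, adjusted p = 0.131), and was called higher in TNF, by 0.53 (adjusted p = 0.0295), when TNF replicate 1 was left out. For Tsc22d3, Sgk1, Mertk and Ddit4 the TNF and CI arrays overlapped, with differences of -0.14 (-0.46 to 0.18), -0.27 (-0.62 to 0.09), -0.12 (-0.44 to 0.19) and -0.19 (-0.82 to 0.43).

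The levels ordered the models in several ways. Fkbp5 and Fam107a had the order Dex, TNF, CI from high to low, with the TNF and CI arrays of Fam107a overlapping. Zbtb16, Dusp1 and Errfi1 had the order Dex, CI, TNF with no overlap between neighbours. Tsc22d3, Sgk1 and Mertk were highest in Dex and had overlapping TNF and CI arrays, and Rasd1 had the order CI, TNF, Dex with no overlap. The share of all genes with each order was not counted.

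Within the Dex group, replicate 3 was the lowest array for 9 of the 10 genes, all but Rasd1. Its beta-actin 3′ minus 5′ probe set difference, a sign of RNA quality, was 0.75 on the log2 scale, against 0.49 and 0.49 in the other Dex arrays, 0.71 to 0.83 in TNF and 0.54 to 0.66 in CI. Without Dex replicate 3 the number of targets called was 9 for Dex minus CI and 9 for Dex minus TNF, as with it. Over all genes 1637 and 1328 were called with every array, and 1552 to 1795 and 1284 to 1420 with each array left out in turn. With the beta-actin difference as a covariate the numbers of targets were 9, 9 and, for TNF minus CI, 2. Dusp1 then missed the p limit (-0.64, adjusted p = 0.113). The Errfi1 difference between TNF and CI was smaller, at -0.67 (adjusted p = 0.0497). Over all genes the covariate fit called 1637 for Dex minus CI and 1279 for Dex minus TNF. CI replicate 2 was above CI replicate 1 for 9 of the 10 genes, all but Errfi1. How often these orders of the Dex and CI arrays held over all genes was not counted.

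Of the 10 genes, 5 had more than 1 probe set, and the probe sets of Errfi1 and Fam107a gave the same calls in every comparison. The second Errfi1 probe set (1419816_s_at) differed by 1.32 for Dex minus CI and 2.10 for Dex minus TNF, and the other 2 of Fam107a (1434203_at and 1435918_at) by 4.92 and 4.51 for Dex minus CI. For Fkbp5, 1448231_at differed by 3.06 for Dex minus CI, whereas 1447736_at, at 3.31 in Dex, 3.36 in TNF and 3.49 in CI, was dim in every model and was not called (-0.18). For Tsc22d3, 1425281_a_at differed by 2.30, while 1425557_x_at (0.27) and 1444365_at (0.14) were not called. For Zbtb16, 1419874_x_at differed by 1.55, and 1427638_at by 0.44, which was not called against CI, and by 0.59 against TNF, which was. Averaged over all of a gene's probe sets, the Dex minus CI difference was 1.95 for Fkbp5 and 1.21 for Tsc22d3.

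**Figure D4:**
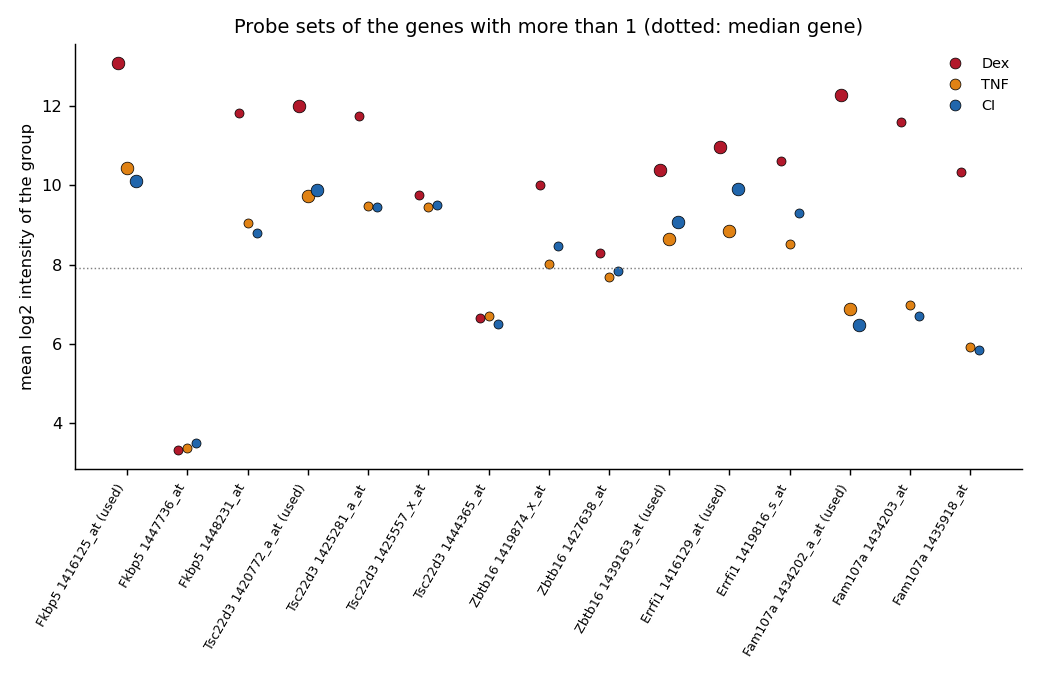
Mean log2 intensity in Dex, TNF and CI of each probe set of the 5 genes with more than 1, with large points for the probe set used and a dotted line at the median gene. One Fkbp5 and 2 Tsc22d3 probe sets show little or no gap between Dex and the other models, and those of Fam107a and Errfi1 show it throughout.

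For a wider view, 26 other genes known to be induced by glucocorticoids in some tissue were read, all of them measured. In Dex against CI 12 were higher and 1 was lower, where 3.33% and 5.67% of all genes were. The median difference was 0.17, against 0.02 over all genes. In Dex against TNF 12 were called, each of them higher, where 3.16% of all genes were called higher. The median there was 0.45, against -0.01 over all genes. Between TNF and CI, 2 were higher and 5 lower in TNF, where 3% and 5.23% of all genes were. The median was -0.09, against 0.03 over all genes. With limma at an unadjusted p under 0.05, 12 were higher and 6 lower in Dex against CI, and 19 higher and 0 lower against TNF. The share of all genes at that limit was not counted. By the calls, these genes thus divided into some that were higher in Dex and about as many that were not called, with 1 lower against CI. In the first list 8 of the 10 were higher. The wider list was chosen by induction and may itself hold direct targets, and the difference between the 2 lists was not tested.

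Pdk4, a kinase that shuts pyruvate out of the citric acid cycle, read 11.64, 11.65 and 11.09 in Dex, against 8.62, 8.53 and 8.56 in TNF and 8.44 and 8.62 in CI. It differed by 2.93 ± 0.15 for Dex minus CI (adjusted p = 1.8e-07) and 2.89 ± 0.13 for Dex minus TNF (adjusted p = 5.34e-08), close to the Fkbp5 values. Cebpd, an adipogenic transcription factor, rose in Dex by 2.40 ± 0.17 against CI and by 1.76 ± 0.15 against TNF, and was itself 0.64 ± 0.17 higher in TNF than in CI (adjusted p = 0.0172). The metallothionein genes Mt2 and Mt1, whose products bind zinc and copper, were higher in Dex than in CI by 1.75 ± 0.12 and 1.49 ± 0.09. Map3k6, a stress-activated kinase, was 1.58 ± 0.09 higher in Dex than in TNF (adjusted p = 3.67e-07).

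Klf15, a transcription factor of amino acid and lipid metabolism, was the listed gene that was called lower in Dex than in CI. It measured 10.24, 10.14 and 10.27 in Dex, 9.88, 10.14 and 9.998 in TNF and 11.40 and 11.46 in CI, so that the CI arrays stood apart from both other models. The difference was -1.22 ± 0.09 for Dex minus CI (adjusted p = 2.32e-06) and -1.43 ± 0.09 for TNF minus CI (adjusted p = 1.72e-06), and 0.21 for Dex minus TNF (adjusted p = 0.0821). Bcl6, a transcriptional repressor, and Pik3r1, a regulatory subunit of PI3-kinase, were also lower in TNF than in CI, with differences of -0.99 ± 0.18 (adjusted p = 0.00223) and -0.64 ± 0.10 (adjusted p = 0.000929), and Mt1 was 0.57 ± 0.09 higher in TNF (adjusted p = 0.00143).

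**Figure D5:**
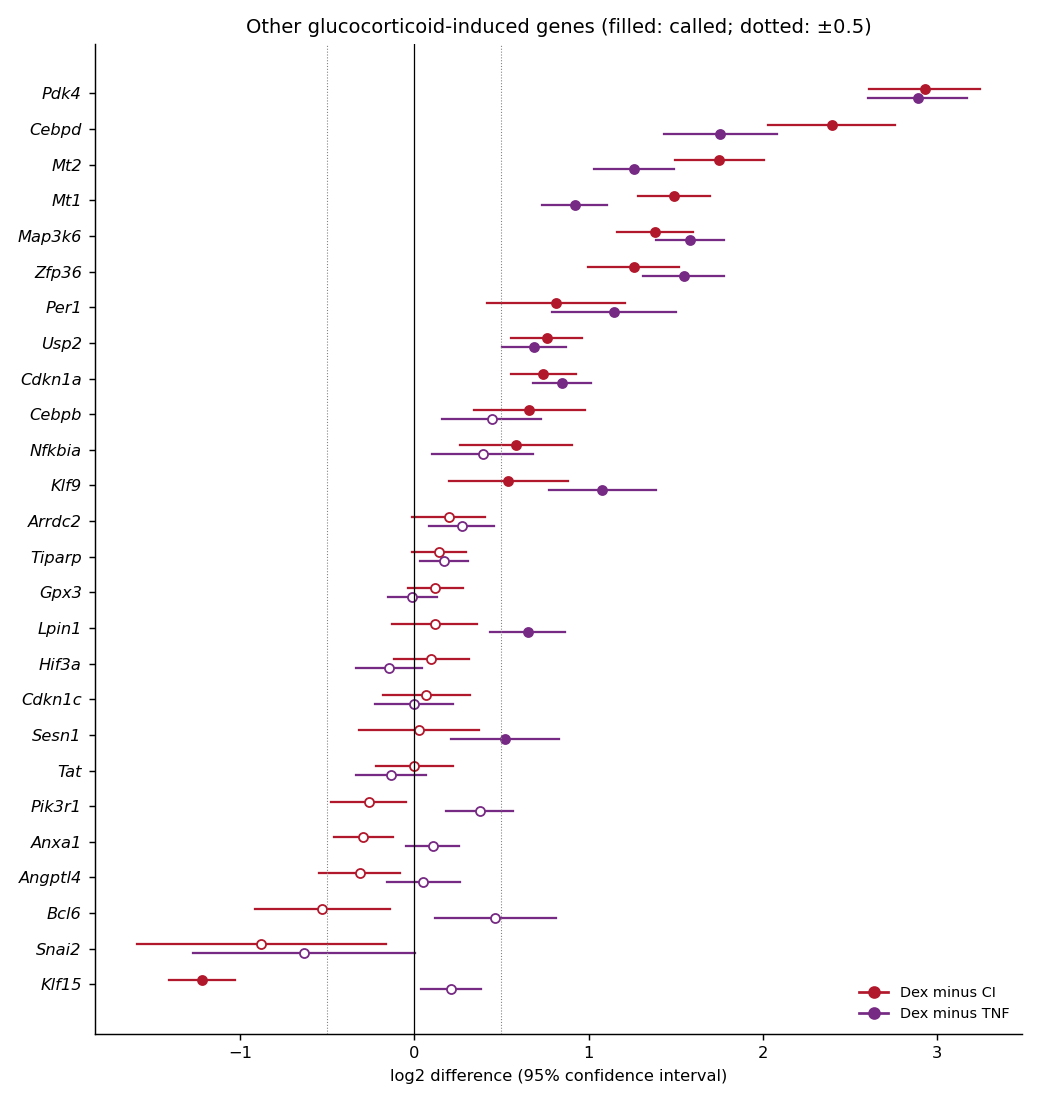
Log2 difference with its 95% confidence interval for the 26 other glucocorticoid-induced genes, for Dex minus CI (upper) and Dex minus TNF (lower), with filled points for called differences and dotted lines at a difference of 0.5 either way. Pdk4 and Cebpd lead the rises, and Klf15 is lower in Dex than in CI and not called against TNF.

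The receptor itself, Nr3c1, read 10.73, 10.61 and 10.49 in Dex, 11.24, 10.97 and 11.10 in TNF and 11.34 and 11.26 in CI. The Dex arrays lay below all others. It was 1.61-fold lower in Dex than in CI (-0.69 ± 0.10, adjusted p = 0.000409), and the difference from TNF, -0.49 ± 0.09 (adjusted p = 0.00191), fell just short of the size limit. Hsd11b1, the enzyme that regenerates active glucocorticoid inside fat cells, was at 12.45, 12.23 and 12.51 in Dex and 12.12, 12.35 and 12.14 in TNF, against 13.52 and 13.40 in CI. It was lower than in CI in Dex (-1.07 ± 0.10, adjusted p = 2.48e-05) and in TNF (-1.26 ± 0.10, adjusted p = 1.45e-05), and 0.19 apart between Dex and TNF (adjusted p = 0.173). The mineralocorticoid receptor Nr3c2 and the inactivating enzyme Hsd11b2 were called in none of the 3 comparisons, with differences between -0.12 and 0.23.

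Markers of fat cells and of their precursors were read beside these genes. Of 9 adipocyte markers, Adipoq averaged 14.37 in Dex, 14.31 in TNF and 14.36 in CI and Fabp4 averaged 14.44, 14.40 and 14.39, so both were near the top of the range in every model. In Dex against CI 3 of the 9 were called (Slc2a4, Pparg and Lep, lower in Dex), and in Dex against TNF 2 (Cidec and Retn, higher in Dex). Over all genes 5.67% were called lower in the first comparison and 3.16% higher in the second. Lep was dim, with means at percentile 15.6 over genes in Dex and 30.2 in CI. Its CI arrays lay far apart, at 7.17 and 6.26, against 5.76 to 5.87 in Dex. Of 7 preadipocyte and fibroblast markers, 3 were called in Dex against CI (Dlk1, Col1a1 and Col3a1), each lower in Dex. Pdgfra (-0.02), Cd34 (-0.13), Pdgfrb (-0.41) and Thy1 (-0.42) were not called there. In Dex against TNF 5 were called, those 3 with Pdgfra and Pdgfrb, again each lower. For Pdgfra (adjusted p = 0.0409) the arrays overlapped, at 10.36 to 10.997 in Dex and 10.988 to 11.99 in TNF. Over all genes 5.67% and 4.14% were called lower in these comparisons. The summed linear intensity, in which bright genes weigh most, was 15404 to 18333 in Dex, 31966 to 36520 in TNF and 31559 to 33231 in CI. The part of these marker differences in the results above was not tested.

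Over the 8 arrays, the genes whose pattern was most like each target were ranked by Pearson's r among 1210 genes with a log2 range of at least 1. These values describe arrays of 3 models, so that any gene set apart in Dex scores highly. The closest to Fkbp5 were Tob2 (0.9986), Ptgds (0.9979) and Sphk1 (0.9969), and Ptgds (0.9984), Rbms2 (0.998) and Cpm (0.9978) were closest to Fam107a. Mertk ran closest to Pdk4 (0.9975), Adcyap1r1 (0.9965) and Glul (0.9961), and Tsc22d3 to Cdo1 (0.9968), Inafm1 (0.9956) and Cbr2 (0.9951).

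Sgk1 was most like Cdkn1a (0.9927), Mtmr14 (0.9862) and Ccdc71l (0.9825), and Zbtb16 most like Peli2 (0.9868), Fam13a (0.985) and Fam214a (0.9825). Klf9 was among the 3 closest to both Errfi1 (0.9882, with Fbxo45 at 0.9831 and Rhob at 0.983) and Dusp1 (0.976, with Tcp11l2 at 0.9851 and Syde2 at 0.9714), the 2 genes with the order Dex, CI, TNF and a called difference between TNF and CI. Rasd1 was closest to Pla2g2e (0.9981), Sema6d (0.994) and Cd1d1 (0.9927). Ddit4 had the weakest likeness, to Jun (0.9186), Syne3 (0.8709) and Gem (0.8646).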

How the data were processed

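Total RNA of 8 samples was labelled and hybridised to Affymetrix arrays that cover the mouse genome. The deposited values were probe set intensities on a linear scale, made by the authors. The methods name RMA background correction and normalisation in affyPLM, and whether the logarithm was then undone is not given in the sources used here. The plan had assumed log2 values, so log2 was taken here with no pseudocount before the test. Precision is limited by the number of arrays. The array medians were 124.707 to 130.973, and Pearson's r was 0.9958 to 0.9978 between arrays of a group and 0.9856 to 0.9911 between groups. Every value column was mapped to a sample.

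Of the probe sets, 64 controls were left out, 34945 had 1 gene symbol in the platform annotation, 932 had several and 9160 had none. Each gene was represented by its single-symbol probe set with the highest mean. The 3 groups entered 1 fit with limma 3.58.1 in R 4.3.3 (lmFit and eBayes, 5 residual degrees of freedom); the moderated test was two-sided, and p-values were adjusted by Benjamini-Hochberg over 18193 genes. Values of the other probe sets came from the same fit with every probe set as a feature. Differences are the first model named minus the second.

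The target genes, the other lists, the naming rule and the alternatives were chosen with earlier results of these data known. By that rule the text names all 10 targets, the 4 steroid receptor and activation genes, and the called genes of the wider list with the largest differences (up to 4 in each direction for Dex minus CI and up to 3 for the others), plus the 3 genes most like each target. Lists were described by counts and medians. The alternatives were other scalings, leaving out dim genes, choosing the probe set differently, the replicate number as a block, the beta-actin difference as a covariate, other eBayes settings, array weights, other limits, and leaving out each array. The fit was tested on simulated data. Promoter windows came from RefSeq, and motifs and figures were made in Python 3.11.15 with matplotlib 3.10.9.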

Additional observations from a re-analysis of the deposited data

How the results depend on the processing

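Of 630 differences of the 10 genes recomputed under 21 alternatives, 604 kept their direction and call, 10 lost the call, 7 gained it and 9 changed sign. All 9 sign changes were TNF minus CI differences not called in either setting: Tsc22d3 (0.0101 with the mean over probe sets, 0.0337 with the most variable probe set, 0.0133 with the beta-actin covariate, and -0.3072 to 0.0284 when arrays were left out in turn), Ddit4 (0.003 with the replicate block, 0.24 with the covariate, and -0.5813 to 0.1937 when arrays were left out in turn) and Mertk (0.14 with the covariate). Dusp1 against CI also missed the p limit for Dex with a trended, robust eBayes (adjusted p = 0.0604), Ddit4 was called for Dex minus TNF with array weights (0.84, adjusted p = 0.0174), and Zbtb16 was called lower in TNF than in CI with -0.56 both without CI replicate 1 (adjusted p = 0.0458) and without TNF replicate 3 (adjusted p = 0.0112). Without the size limit, 5 targets and 11 genes of the wider list were called for TNF minus CI. With a size limit of 1, the wider list gave 7 calls for Dex minus CI, 7 for Dex minus TNF and 1 for TNF minus CI. Among the targets, Dusp1 then lost its call for Dex minus CI (0.73) and for TNF minus CI (-0.81). Rasd1 lost its call for Dex minus TNF (-0.65). Leaving out each array in turn gave 8 to 9 targets for Dex minus CI, 9 to 10 for Dex minus TNF and 2 to 4 for TNF minus CI, and 10 to 15, 11 to 15 and 4 to 7 of the wider list, the 4 without CI replicate 1. Over all genes 1637, 1328 and 1496 were called in the same order of comparisons. With each array left out in turn, 1552 to 1795, 1284 to 1420 and 1237 to 1605 of all genes were called. With every probe set as a feature the counts over all genes were 3305, 2583 and 2992. They were 3925, 3800 and 4181 without the size limit and 423, 342 and 258 with a size limit of 1. Deviations from the group means correlated at -0.0949 to 0.3343 in the 7 same-numbered pairs and at -0.3842 to 0.284 in the others. With 2 or 3 arrays in a group, these values cannot decide whether the replicate numbers pair the arrays. With the replicate block 9 targets were called for Dex minus CI, 9 for Dex minus TNF and 3 for TNF minus CI, as without it. Over all genes 1730, 1339 and 1534 were called with the block, in the same order. CI had 2 arrays, so leaving 1 out assumes that the other varies like the arrays of Dex and TNF.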
